A study of Homo sapiens with 6 samples.

Results

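The 10 genes described here are the transcriptional co-activators YAP1 and WWTR1 (TAZ), the DNA-binding partners TEAD1 and TEAD4, and 6 genes known as targets of the YAP-TEAD complex: CYR61 (CCN1), CTGF (CCN2), ANKRD1, AMOTL2, LATS2 and AXL. They were chosen by name, YAP1 as a gene discussed as a miR-200a target and the others as its paralog, partners and canonical targets. The choice was made with earlier results of these data known, so shares given beside all tested genes are a description and not a test. Each gene was matched to 1 of the 24462 gene symbols in the count files. All 10 passed the filter on low counts, as did 12650 genes in all. The libraries came from MDA-MB-231, an established line of triple negative breast cancer cells, harvested 48 h after transfection and read by QuantSeq, a 3′ mRNA method that takes reads from near the polyadenylated end of each transcript. Each of the 3 groups had 2 libraries. The first received a non-specific control mimic (NC mimic), the second a miR-200a mimic at 100 nM, and the third the miR-200a mimic at 100 nM together with 30 ng of a pcDNA3.1 plasmid that carries Flag-tagged ELK3 coding sequence without its natural 3′UTR. The design asked how miR-200a acts on these cells and what returning ELK3 changes. No group received the empty plasmid, so an effect of the plasmid and an effect of ELK3 cannot be told apart. The labels do not say whether the 2 libraries of a group came from separate cultures, so every p-value measures the spread between these libraries, which may be technical.

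YAP1 and WWTR1 are the effectors of the Hippo pathway. The kinases STK3 and STK4 activate LATS1 and LATS2, which phosphorylate both proteins and so hold them in the cytoplasm. When LATS1 and LATS2 are inactive, YAP1 and WWTR1 enter the nucleus and bind TEAD factors at the promoters and enhancers of their targets. CYR61 and CTGF encode secreted matricellular proteins, ANKRD1 an ankyrin repeat protein, AXL a receptor tyrosine kinase, and AMOTL2 and LATS2 inhibitors that restrain YAP1 in turn. Their mRNA levels are widely read as a measure of YAP-TEAD output. That output depends on where YAP1 and WWTR1 are in the cell as well as on how much of them there is. In MDA-MB-231 cells YAP-TEAD output is known to be high because the line lacks functional NF2 protein.

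The mature miR-200a-3p is shown first because the bases from position 2 to 8 from its 5′ end, the seed (in capitals), set which 3′UTRs it can pair with. The sequences of the family are from the RefSeq miRNA table on GRCh38.p14, and miR-200a-3p and miR-141-3p share a seed that differs from that of the other 3.
hsa-miR-200a-3p: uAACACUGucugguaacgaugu
hsa-miR-141-3p: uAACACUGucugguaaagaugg
hsa-miR-200b-3p: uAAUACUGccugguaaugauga
hsa-miR-200c-3p: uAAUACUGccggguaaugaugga
hsa-miR-429: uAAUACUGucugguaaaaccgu
In the longest 3′UTR annotated for each gene by GENCODE 29 on GRCh38, CAGTGTT, the 7 bases that pair with the seed of miR-200a, was present in 4 of the 10 genes. YAP1 and WWTR1 each held 2 matches, and TEAD1 and LATS2 each held 1. All 6 lie in the last exon of their transcript. The match is in capitals in the 30-base windows below, written 5′ to 3′ along the mRNA in DNA letters.
YAP1 site 1, chr11:102232465-102232494, strand plus: tgcccagttatacctCAGTGTTgtagcagt
YAP1 site 2, chr11:102233015-102233044, strand plus: agaattcataccaatCAGTGTTgaaactca
WWTR1 site 1, chr3:149518404-149518433, strand minus: cctaacaaaactcagCAGTGTTactgtatt
WWTR1 site 2, chr3:149517734-149517763, strand minus: taagtaatttttagaCAGTGTTtcaccgta
TEAD1 site, chr11:12941607-12941636, strand plus: actaattctgtttgtCAGTGTTcacacctg
LATS2 site, chr13:20973288-20973317, strand minus: cacttagaagtttatCAGTGTTtaaactaa
The first WWTR1 match is followed by A and is the only 8mer of the 6, the class of site with the most pairing. TEAD4, CYR61, CTGF, ANKRD1, AMOTL2 and AXL held none in their 3′UTR. Of 11233 tested genes with an annotated 3′UTR, 21.6% held at least 1 match, and a match is a description of the sequence and not proof of a working site.

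**Figure D1:**
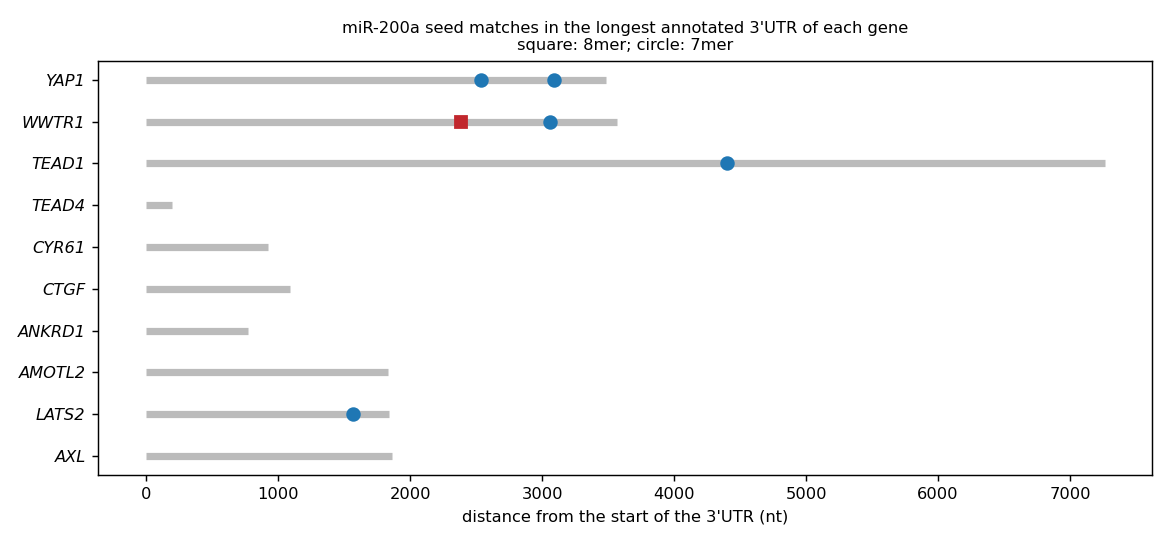
Positions of miR-200a seed matches (blue circles, 7mer, and a red square, 8mer) along the longest annotated 3′UTR of each of the 10 genes, with the distance from the start of the 3′UTR in nucleotides on the x axis. YAP1 and WWTR1 hold 2 matches each and TEAD1 and LATS2 hold 1, whereas the other 6 genes, with 3′UTRs of 195 to 1862 nucleotides, hold none.

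The libraries held 3055915 to 4868004 counts, so that 3 counts correspond to at most 0.979 CPM, the count of a gene relative to the library's total as scaled by the TMM method. The line's known markers were read as follows. VIM lay between 956 and 2462 CPM, CD44 between 195 and 337 CPM, LGALS1 between 461 and 745 CPM and S100A4 between 597 and 865 CPM. Of 5 genes known as absent or low in this line, ESR1 had 0 counts in all 6 libraries and PGR at most 1. The other 3 were above the floor, ERBB2 at 23.3 to 47.3 CPM, EPCAM at 8.69 to 29.1 CPM and GATA3 at 3.29 to 8.72 CPM. EPCAM, an epithelial adhesion protein, differed by 1.43 between miR-200a and NC mimic (SE 0.26, adjusted p = 0.0713). CD44 was lower in the plasmid libraries (218 and 195 CPM) than in the other 4, by 0.61 on the log2 scale against miR-200a (adjusted p = 0.0151), a call that was lost without any 1 library of the NC mimic or miR-200a groups (adjusted p from 0.0538 to 0.215). VIM was at 956 CPM in replicate 2, and LGALS1 and S100A4 were highest there. ELK3 itself was at 138 and 166 CPM with the NC mimic, 102 and 103 CPM with miR-200a, and 96.2 and 79.2 CPM in those labelled miR-200a plus ELK3. With miR-200a alone ELK3 differed from NC mimic by -0.56 on the log2 scale (SE 0.15, adjusted p = 0.232), which did not pass the threshold of 0.05. It was not higher where the plasmid was added: it differed from NC mimic by -0.79 on the log2 scale (SE 0.16, adjusted p = 0.0117, but 0.0691 or 0.159 without an NC mimic library) and from miR-200a alone by -0.23 (SE 0.16, adjusted p = 0.354). The plasmid lacks the 3′ end from which the native reads come, and how its reads would have been counted is not given in the sources used here, so the counts do not check that label. The 2 libraries labelled miR-200a plus ELK3 also differed more from each other than those of the other groups, with 7.72% of tested genes at least 2-fold apart against 3.29% for NC mimic and 2.02% for miR-200a, and their part in the results was not tested. Counts of calls on these libraries are therefore also given without either of them, in a fit that assumes the library left in its group to vary like those of the other groups.

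With miR-200a alone, 0 of the 10 YAP-TEAD genes passed the adjusted threshold of 0.05 against the NC mimic in edgeR's quasi-likelihood test, where 0.269% of all tested genes passed in either direction. At an unadjusted p under 0.05 the count was 1, AMOTL2, beside 1169 of the 12650 tested genes, and it was 0 in DESeq2 and in limma. The count depended on the plasmid libraries in the fit. With only these 2 groups fitted it was 5, beside 2571 of the 12460 genes tested in that fit. Of the 5, AMOTL2 passed after adjustment, as did 7.89% of all genes tested there. The largest differences were those of LATS2, at -0.36 (SE 0.20), and AMOTL2, at 0.32 (SE 0.13), on the log2 scale. All 4 factor genes had a negative log2 difference, beside 6677 of the 12650 tested genes. Their median was -0.19, beside -0.02 over all tested genes. That of TEAD4 was -0.03 (SE 0.44), and it ran from -0.13 to 0.062 when 1 library was left out.

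YAP1 was measured at 114 and 120.1 CPM with the NC mimic, 100.5 and 92.1 CPM with miR-200a, and 94.97 and 79.4 CPM with miR-200a plus ELK3. Both NC mimic libraries were higher than the other 4, and the 2 groups given miR-200a overlapped each other. The difference between miR-200a and NC mimic was -0.28 on the log2 scale (SE 0.15, 95% interval -0.60 to 0.04, adjusted p = 0.618). The interval is not adjusted for the number of genes, and it includes 0. WWTR1 lay at 117 and 108 CPM, 103 and 97.0 CPM, and 99.5 and 108 CPM in the same groups, again with both NC mimic libraries above those of miR-200a alone. Its difference was -0.17 (SE 0.13, 95% interval -0.47 to 0.13, adjusted p = 0.767).

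TEAD1 lay at 189.7 and 193 CPM with the NC mimic, 159.7 and 174 CPM with miR-200a, and 143 and 124 CPM with miR-200a plus ELK3. The 3 groups did not overlap and stood in that order. The step from NC mimic to miR-200a was -0.20 (SE 0.13, adjusted p = 0.717), within the error of the fit. TEAD4 was measured from few reads, 39 to 120 counts a library. It lay at 11.1 and 12.7 CPM, at 12.04 and 11.2 CPM, and at 9.47 and 28.2 CPM, so that a single library labelled miR-200a plus ELK3 stood above the rest.

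**Figure D2:**
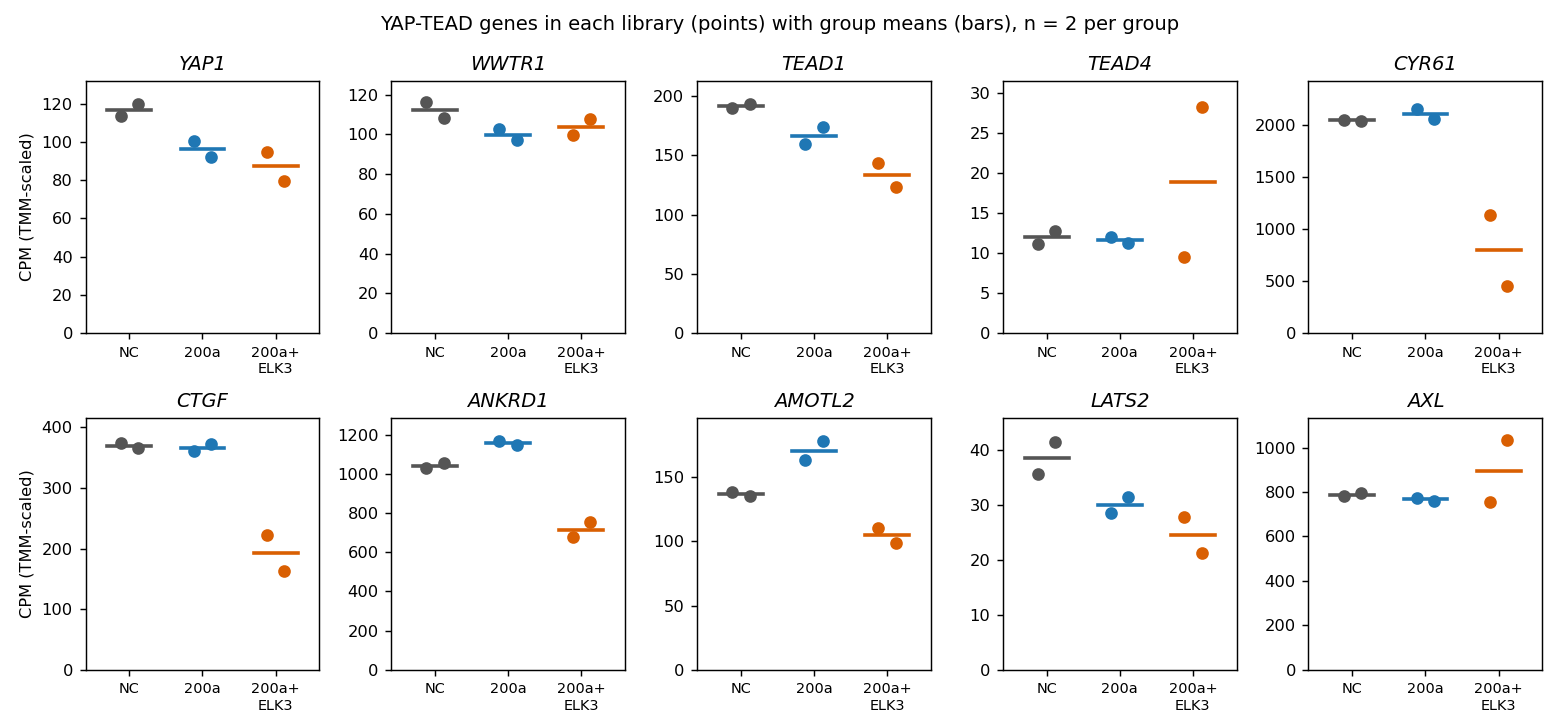
CPM of the 10 genes (y axis, starting at 0) in each library (points, n = 2 per group) with the group mean (bar), for NC mimic, miR-200a and miR-200a plus ELK3. CYR61, CTGF, ANKRD1 and AMOTL2 are lower in both libraries with the plasmid than in all 4 others, whereas TEAD4 and AXL are high in 1 of them.

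Among the 6 targets, none of which passed the threshold with miR-200a alone, CTGF had the smallest difference, 375 and 365 CPM with the NC mimic against 360.4 and 372 CPM with miR-200a (log2 difference -0.01, SE 0.15, adjusted p = 0.989). CYR61 was at 2049.9 and 2039 CPM against 2159 and 2061 CPM (0.05, SE 0.30, adjusted p = 0.986). The wide SE of CYR61 includes the spread of the plasmid libraries, since all 6 libraries share 1 fit. ANKRD1 was at 1031 and 1056 CPM against 1169 and 1149 CPM (0.15, SE 0.11, adjusted p = 0.734). Without plasmid replicate 1 or 2 the ANKRD1 difference was 0.17 in both fits, with an adjusted p of 0.0480 or 0.0403.

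AMOTL2, whose protein binds and sequesters YAP1, was at 139 and 136 CPM with the NC mimic and at 164 and 178 CPM with miR-200a. Both miR-200a libraries were higher, by 0.32 on the log2 scale (SE 0.13, adjusted p = 0.505), which did not pass. With only these 2 groups in the fit the value was 0.33 and the adjusted p 0.0115, and over all settings tried the adjusted p ran from 0.0115 to 1. In the GENCODE 29 annotation the pseudogene RPL39P5 overlaps the 3′ end of AMOTL2 on the same strand, so that its reads could have been counted with either. LATS2, the kinase that phosphorylates YAP1, lay at 35.6 and 41.4 CPM against 28.4 and 31.4 CPM (-0.36, SE 0.20, adjusted p = 0.657), and AXL at 783 and 794 CPM against 773 and 760.0 CPM (-0.04, SE 0.14, adjusted p = 0.972).

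Counted by overlap alone, 5 of the 10 genes (YAP1, WWTR1, TEAD1, LATS2 and AXL) had both miR-200a libraries below both NC mimic libraries, beside 26.1% of all tested genes, and 3 (CYR61, ANKRD1 and AMOTL2) had both above, beside 22.9%. By a looser rule, an unadjusted p under 0.05 with a fold above 1.5 and a mean log2 normalised count above 3, 0 of the 10 were called, beside 4.57% of all tested genes.

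The 4 genes with a seed match all had negative log2 differences between miR-200a and NC mimic, from -0.36 to -0.17 with a median of -0.24. Of the 6 genes without a match, 3 were negative, and the median was 0.02. Over all tested genes with an annotated 3′UTR, 58.4% of the 2431 with a match and 50.8% of the 8802 without were negative, with medians of -0.05 and -0.01. None of the 4 passed the test alone, and no test was made of the 4 as a group.

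With the ELK3 plasmid added to miR-200a, 4 of the 6 targets fell and none of the 4 factor genes passed the test. CYR61 fell 2.65-fold, CTGF 1.90-fold, AMOTL2 1.63-fold and ANKRD1 1.62-fold relative to miR-200a alone. These 4 of 10 stand beside 5.91% of all tested genes that fell in this comparison, and 0 of the 10 rose in edgeR's test, beside 7.03%. In bulk RNA, a loss of RNA per cell and a loss of the cells that hold it cannot be told apart.

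CYR61, the target with the greatest fold, was at 2159 and 2061 CPM with miR-200a and at 1140.1 and 453 CPM in those labelled miR-200a plus ELK3. Both plasmid libraries were below all 4 others, but they were 2.52-fold apart from each other. The log2 difference was -1.41 (SE 0.31, 95% interval -2.09 to -0.72, adjusted p = 0.0187). Without the lower of the 2 plasmid libraries (replicate 2) it was -0.92, and without replicate 1 it was -2.23. CYR61 passed the threshold in both cases.

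CTGF was at 360.4 and 372 CPM with miR-200a and at 222 and 163 CPM with the plasmid. The groups did not overlap, and the 2 plasmid libraries were 1.36-fold apart, in the same order as for CYR61. The log2 difference was -0.93 (SE 0.15, 95% interval -1.26 to -0.59, adjusted p = 0.00614). It was -0.75 without replicate 2 and -1.18 without replicate 1, past the threshold each time.

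ANKRD1 fell from 1169 and 1149 CPM to 679 and 754 CPM, and here the 2 plasmid libraries were close (1.11-fold apart) and in the opposite order. The log2 difference was -0.69 (SE 0.11, 95% interval -0.93 to -0.45, adjusted p = 0.00519). AMOTL2 fell from 164 and 178 CPM to 111 and 98.7 CPM, with a log2 difference of -0.71 (SE 0.13, 95% interval -0.999 to -0.415, adjusted p = 0.0104). Both passed without either plasmid library.

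All 4 calls were lost, however, when either miR-200a library was left out. The log2 differences were then -1.37 and -1.44 for CYR61 and -0.95 and -0.90 for CTGF. They were -0.68 and -0.70 for ANKRD1 and -0.77 and -0.64 for AMOTL2. Those fits called a far smaller share of all tested genes than the fit of all 6 libraries. The adjusted p of the 4 then lay between 0.102 and 0.171. CYR61 alone also lost its call without either NC mimic library and with only the 2 compared groups in the fit. By limma on quantile-normalised log2 counts 0 of the 10 passed, beside 0.846% of all tested genes. At an unadjusted p under 0.05 limma had 5 of the 10, beside 3257 of the 12650 tested genes.

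LATS2 and AXL did not pass. LATS2 was at 28.4 and 31.4 CPM with miR-200a and 27.7 and 21.2 CPM with the plasmid (-0.29, SE 0.21, adjusted p = 0.369). AXL was at 773 and 760.0 CPM against 756 and 1036 CPM (0.23, SE 0.14, adjusted p = 0.320), and its sign rests on replicate 2, without which the difference was -0.05. Without replicate 1, AXL and TEAD4 were among 7 of the 10 genes past the threshold, both higher, in a fit that called 35.7% of all tested genes.

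Of the factor genes, TEAD1 differed by -0.32 (SE 0.13, 95% interval -0.61 to -0.03, adjusted p = 0.133). YAP1 differed by -0.14 (SE 0.15, 95% interval -0.47 to 0.18, adjusted p = 0.543) and WWTR1 by 0.05 (SE 0.14, 95% interval -0.25 to 0.35, adjusted p = 0.823). TEAD4 differed by 0.70 (SE 0.41, adjusted p = 0.286), or by -0.33 without replicate 2. The YAP1 and WWTR1 proteins were not measured in these libraries.

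Both plasmid libraries were below both miR-200a libraries in 6 of the 10 genes (the 4 called targets with TEAD1 and LATS2), beside 28.0% of all tested genes, and above them in 0 of the 10, beside 30.2%. By the looser rule the same 4 targets were called, beside 19.1% of all tested genes. The median log2 difference of the 10 was -0.31 and that of the 6 targets -0.70, against 0.02 for all tested genes.

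**Figure D3:**
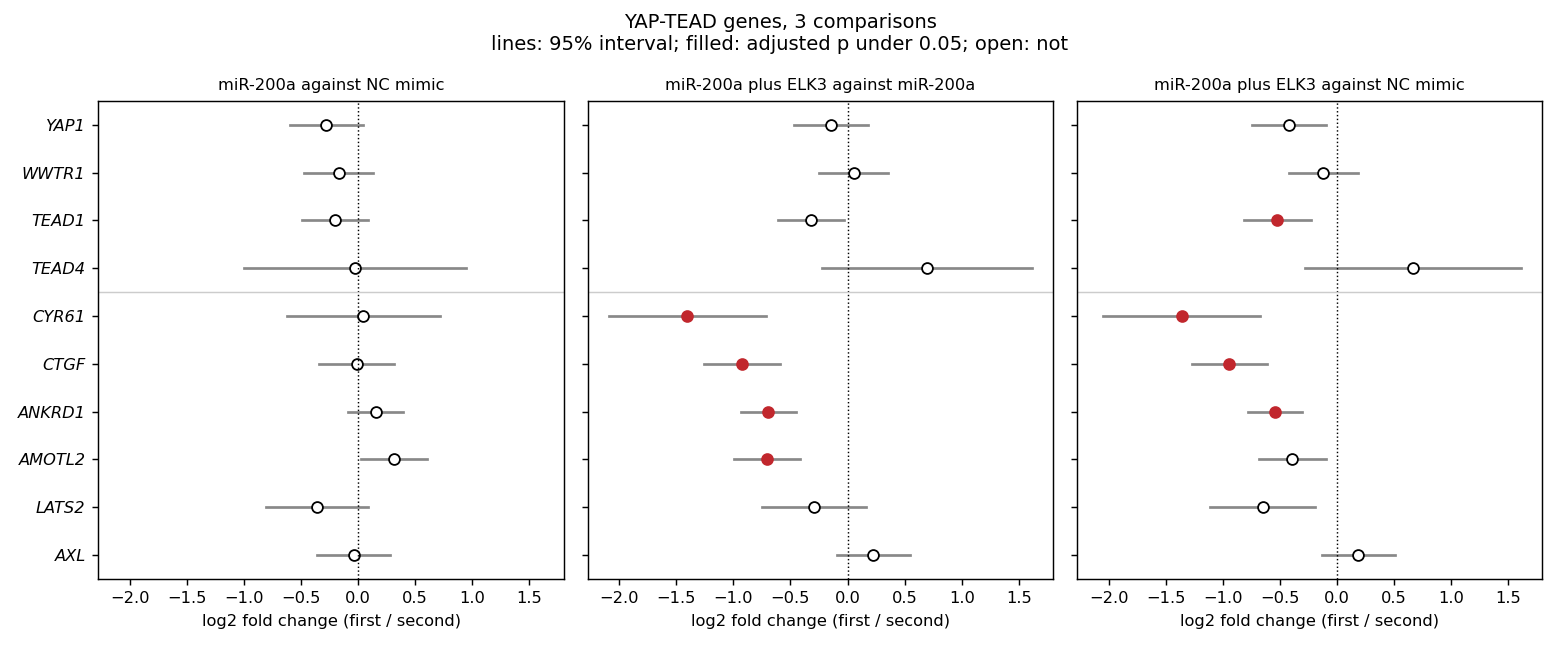
Log2 fold changes of the 10 genes in each of the 3 comparisons (x axis, first group over second) with unadjusted 95% intervals, filled where the adjusted p was under 0.05. No gene is filled for miR-200a against NC mimic, CYR61, CTGF, ANKRD1 and AMOTL2 are filled for miR-200a plus ELK3 against miR-200a, and TEAD1, CYR61, CTGF and ANKRD1 against NC mimic.

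Against the NC mimic, the libraries labelled miR-200a plus ELK3 were lower for CYR61, CTGF and ANKRD1 and also for TEAD1. This comparison shares its plasmid libraries with the one above and its NC mimic libraries with the first, so it is not a further test of either. CYR61 fell 2.57-fold (log2 difference -1.36, SE 0.31, adjusted p = 0.0210), CTGF 1.92-fold (-0.94, SE 0.15, adjusted p = 0.00498) and ANKRD1 1.46-fold (-0.54, SE 0.11, adjusted p = 0.0124). Both plasmid libraries were below both NC mimic libraries for each of the 3. TEAD1 fell 1.44-fold (-0.52, SE 0.13, adjusted p = 0.0306), from 189.7 and 193 CPM to 143 and 124 CPM.

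AMOTL2, LATS2 and YAP1 were lower than the NC mimic in both plasmid libraries but did not pass. AMOTL2 differed by -0.39 (SE 0.13, adjusted p = 0.0785), from a level with miR-200a alone that lay above the NC mimic. LATS2 differed by -0.65 (SE 0.21, adjusted p = 0.0631) and YAP1 by -0.42 (SE 0.15, adjusted p = 0.0836), with no overlap between libraries for either. WWTR1 (-0.12, SE 0.13), TEAD4 (0.67, SE 0.43) and AXL (0.19, SE 0.14) had adjusted p-values of 0.595, 0.322 and 0.418.

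The 4 that fell stand beside 5.95% of all tested genes that fell, and 0 rose in edgeR's test beside 6.92%. At an unadjusted p under 0.05 there were 7 of the 10, all negative, beside 3873 of the 12650 tested genes in either direction. Libraries did not overlap and were lower in 8 of the 10, all but TEAD4 and AXL, beside 27.6%, and were higher in 0, beside 29.0%. By the looser rule 3 were called (CYR61, CTGF and LATS2), beside 19.4%. Without replicate 1 of the plasmid group 9 of the 10 passed, and without replicate 2 there were 5, in fits that called 35.6% and 22.3% of all tested genes against 12.9% with all libraries. Without either NC mimic library all 4 calls were lost, and without either miR-200a library all but that of CTGF were lost. Those fits also called a smaller share of all tested genes than the fit of all 6 libraries. Limma called 0 of the 10, beside 3.09% of all tested genes. At an unadjusted p under 0.05 it had 7 of the 10, beside 3384 of the 12650 tested genes.

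TEAD factors bind the motif known as MCAT, of which GGAATG is the core. The RefSeq promoter windows, which run from 250 bases before to 50 after a start site on GRCh38.p14, covered 7 of the 10 genes in 10 entries, with none for TEAD1, TEAD4 and CYR61. GGAATG, searched on both strands, matched at least once in 6 of the 10 windows, each of a different gene, where 14% of all 35116 windows held it. CTGF held 3 matches, with their first bases at -169, -104 and -95 from the start, where 0.128% of all windows held 3 or more. ANKRD1 held 2, at -220 and -128, where 1.37% held 2 or more. YAP1 held 1 at -162 and LATS2 1 at 10 bases after the start. AMOTL2 and AXL, with 2 start sites each, held 1 match in the window of the second, at -69 and -212, on the opposite strand. WWTR1 held none in either of its windows. The matches did not overlap each other. The CArG box, the motif of the SRF factor with which ELK3 is known to bind DNA, occurred in 1.29% of all windows and in none of these 10.

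The 250 bases before the start are shown for 3 of the targets that fell with the plasmid, 5′ to 3′ along the gene, with GGAATG or its reverse complement CATTCC in capitals. In CTGF the matches at -104 and -95 are separated by a few bases.
CTGF (CCN2), chr6:131951373-131951622, strand minus: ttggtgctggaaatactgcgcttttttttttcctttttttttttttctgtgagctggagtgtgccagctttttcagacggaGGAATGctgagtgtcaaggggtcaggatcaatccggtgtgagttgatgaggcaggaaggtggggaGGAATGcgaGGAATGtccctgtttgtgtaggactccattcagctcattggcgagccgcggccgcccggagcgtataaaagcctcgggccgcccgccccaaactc
ANKRD1, chr10:90921088-90921337, strand minus: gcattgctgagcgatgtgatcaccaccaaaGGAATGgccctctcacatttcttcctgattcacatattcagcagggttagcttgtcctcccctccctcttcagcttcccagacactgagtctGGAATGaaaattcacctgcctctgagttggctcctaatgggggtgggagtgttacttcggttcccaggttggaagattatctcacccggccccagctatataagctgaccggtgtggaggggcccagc
AMOTL2 start site 2, chr3:134374448-134374697, strand minus: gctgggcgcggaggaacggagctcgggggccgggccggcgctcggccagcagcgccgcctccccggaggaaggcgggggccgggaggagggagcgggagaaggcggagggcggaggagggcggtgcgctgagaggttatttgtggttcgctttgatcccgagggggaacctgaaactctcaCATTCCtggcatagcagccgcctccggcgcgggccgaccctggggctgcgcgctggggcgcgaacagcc
The binding of TEAD or ELK3 at these bases was not measured, and many YAP-TEAD sites lie in distant enhancers.

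**Figure D4:**
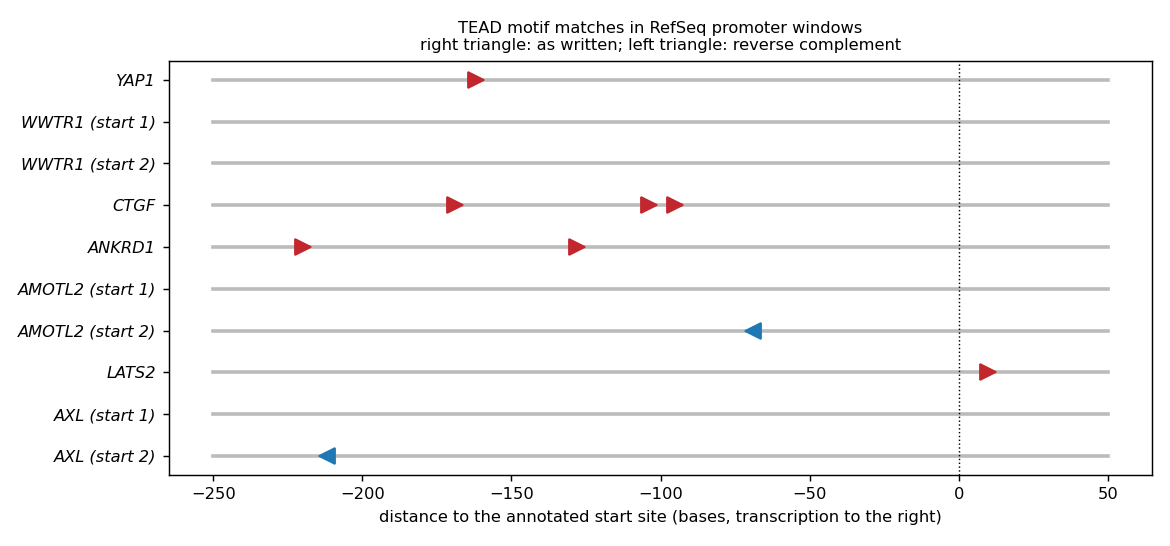
Positions of TEAD motif matches (triangles, right for the motif as written and left for its reverse complement) in the RefSeq promoter windows of 7 of the 10 genes, with the distance to the annotated start site in bases on the x axis. CTGF has 3 matches and ANKRD1 has 2 before the start, and no other window has more than 1.

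Other genes of the pathway were read from lists chosen by known role, also with earlier results of these data known. Of 16 further genes known as YAP targets, all tested, 0 passed in edgeR with miR-200a alone, beside 0.269% of all tested genes. The nearest was TGFB2 (-0.82, SE 0.16, adjusted p = 0.0798). Without plasmid replicate 1 it was at -0.795 in that comparison, and without replicate 2 at -0.792. With the plasmid added, 5 of the 16 fell and 1 rose relative to miR-200a, beside the 5.91% and 7.03% of all tested genes, with a list median of -0.47 against 0.02 for all tested genes. Against the NC mimic 5 fell and 0 rose, beside 5.95% and 6.92% of all tested genes, with a list median of -0.41. In both comparisons, which share the plasmid libraries, the 5 that fell were IGFBP3, TGFB2, CCDC80, RBMS3 and GADD45A. Relative to miR-200a, 11 fell and 2 rose without plasmid replicate 1, and 9 fell and 1 rose without replicate 2, in fits that called 35.7% and 22.1% of all tested genes against 12.9% with all libraries. Fewer of the 16 fell without any 1 library of the NC mimic or miR-200a groups, and only CCDC80 or IGFBP3 was still called in such fits. Against the NC mimic more of the 16 fell without either plasmid library and fewer without any other library. In both comparisons the share of all tested genes that passed moved the same way.

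IGFBP3, which encodes a binding protein of insulin-like growth factors, was at 61.9 and 56.1 CPM with the NC mimic, 48.4 and 68.1 CPM with miR-200a, and 18.2 and 7.05 CPM with the plasmid. It fell 4.60-fold relative to miR-200a (log2 difference -2.20, SE 0.33, adjusted p = 0.00469), and the difference was -3.05 without plasmid replicate 1 and -1.71 without replicate 2. TGFB2, a ligand of the TGF-beta receptors, was at 87.1 and 101 CPM, 56.1 and 50.7 CPM, and 29.4 and 34.8 CPM, so that the 3 groups stood in steps. It fell by 0.73 relative to miR-200a (adjusted p = 0.0227) and by 1.55 relative to NC mimic (adjusted p = 0.000898). CCDC80, a matrix protein, fell by 0.76 and 1.07, RBMS3, an RNA-binding protein, by 0.83 and 0.96, and GADD45A, a growth arrest protein, by 0.56 and 0.72 on the log2 scale. FJX1 was the exception, at 25.6 and 22.2 CPM, 15.8 and 17.5 CPM, and 29.6 and 25.4 CPM, and it rose by 0.72 relative to miR-200a (SE 0.21, adjusted p = 0.0497), a call that was lost without any 1 library of the NC mimic or miR-200a groups (adjusted p from 0.0972 to 0.302).

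**Figure D5:**
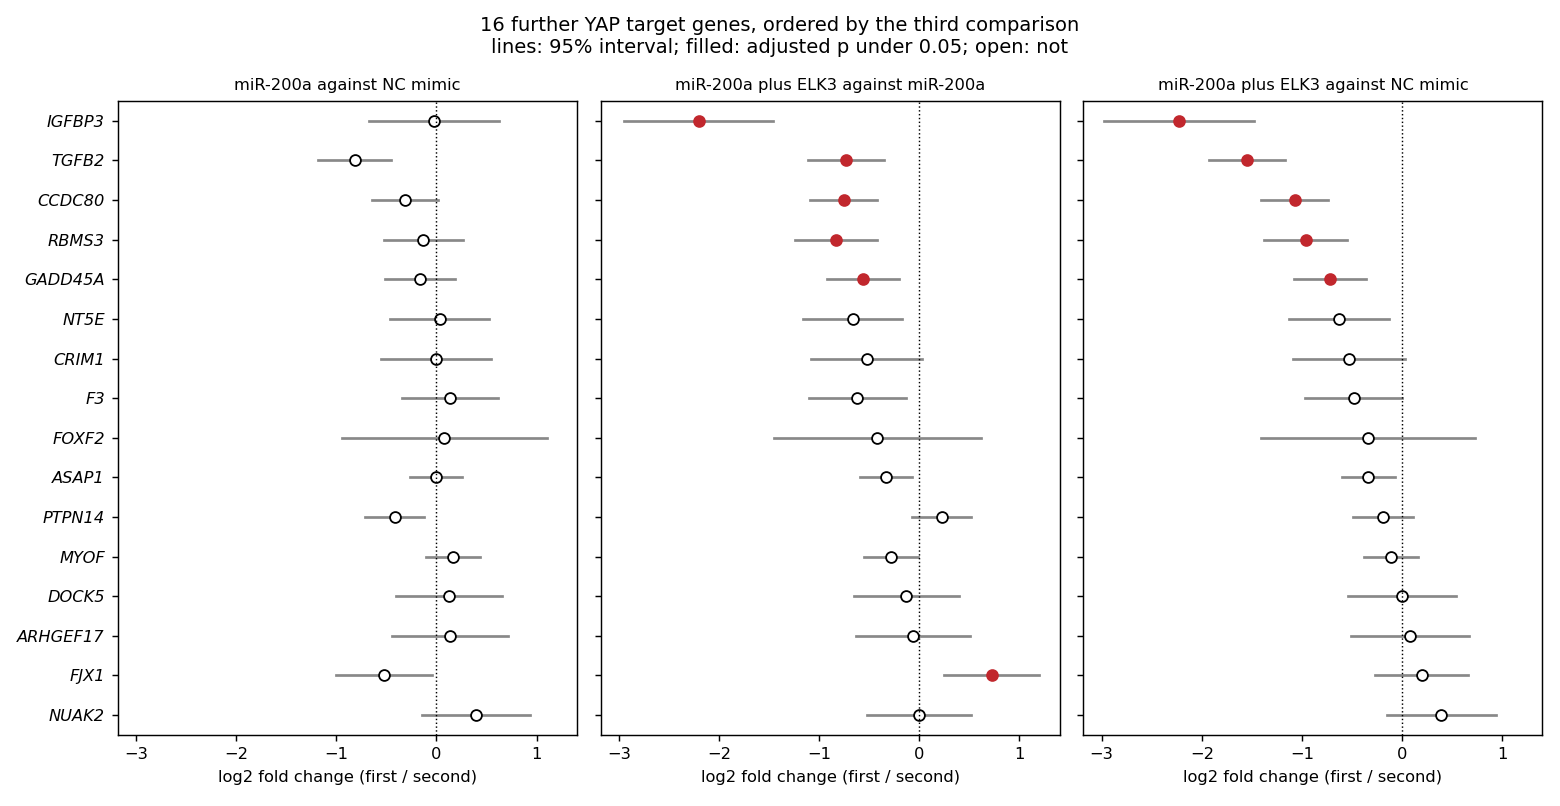
Log2 fold changes of 16 further YAP target genes in each of the 3 comparisons (x axis, first group over second) with unadjusted 95% intervals, filled where the adjusted p was under 0.05. IGFBP3, TGFB2, CCDC80, RBMS3 and GADD45A are filled and negative in both comparisons with the plasmid, and FJX1 is filled and positive against miR-200a.

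Of the 13 genes of the Hippo kinase module, 0 passed with miR-200a alone in edgeR, beside 0.269% of all tested genes. Without either plasmid library SAV1, STK4 and WWC1 rose in that comparison (SAV1 by 0.55 in both fits, STK4 by 0.43), where 7.51% and 7.71% of all tested genes passed. With the plasmid added, MAP4K4, a kinase upstream of LATS1 and LATS2, fell from 331 and 325 CPM to 236 and 245 CPM (-0.45, SE 0.12, adjusted p = 0.0334). SAV1, the scaffold of STK3 and STK4, fell from 92.2 and 91.7 CPM to 65.6 and 62.5 CPM (-0.52, SE 0.14, adjusted p = 0.0362), which was near its level with the NC mimic (64.1 and 63.0 CPM). The other 11 did not pass, where 12.9% of all tested genes passed in either direction. In the comparison with the NC mimic 11 of the 13 also did not pass, where 12.9% of all tested genes passed. The calls of this list were near that share in both. Against the NC mimic MAP4K4 fell by 0.65 (adjusted p = 0.00848) and STK4 rose by 0.45 (SE 0.13, adjusted p = 0.0486), from 126 and 125 CPM to 159 and 183 CPM. STK3 was at 17.5 to 28.4 CPM and LATS1 at 25.2 to 32.4 CPM over the 6 libraries, and neither passed in any comparison. The calls of MAP4K4 and SAV1 against miR-200a, and that of STK4, were lost when any 1 library of the NC mimic or miR-200a groups was left out, and those of MAP4K4 and of VGLL3, a gene of the next list, against the NC mimic were lost without either NC mimic library.

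The list of YAP and TEAD cofactors and inhibitors held 10 genes, of which 9 were tested and VGLL1 had 0 counts in every library. VGLL3, a TEAD cofactor, was read 20 and 25 times in the NC mimic libraries, 16 and 9 times in those of miR-200a and 4 times in each with the plasmid, and it fell by 2.66 on the log2 scale against the NC mimic (SE 0.58, adjusted p = 0.0180). The other 8 passed in no comparison with all 6 libraries. Of all tested genes, 0.269%, 12.9% and 12.9% passed in the 3 comparisons. The 1 call among the 9 tested was near the share of its comparison. With miR-200a alone the list median was -0.34, and it was -0.32 without plasmid replicate 1 or 2. With the plasmid it was 0.07 against miR-200a, or -0.19 without replicate 1 and 0.003 without replicate 2. Against the NC mimic it was -0.24, or -0.18 and -0.32 in the same fits. Of the remaining TEAD genes, TEAD2 was at 30.3 and 24.8 CPM with the NC mimic, 32.4 and 26.1 CPM with miR-200a and 40.7 and 55.5 CPM with the plasmid. It rose by 0.79 against the NC mimic (SE 0.22, adjusted p = 0.0396), in which comparison TEAD1 fell, and its call was lost without any 1 library other than plasmid replicate 1. TEAD3 was at 38.1 and 39.8 CPM, 40.5 and 48.7 CPM, and 37.2 and 18.1 CPM, and passed in none.

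The genes whose log2 CPM over the 6 libraries was most like that of YAP1, among 5771 genes with a mean log2 CPM above 5, were ZNF281 (Pearson's r 0.988), ARL6IP1 (0.980) and MCTP1 (0.979). For CYR61 they were ANKRD28 (0.998), ITM2B (0.997) and PAPSS1 (0.997), and for CTGF they were HLA-B (0.999), H1F0 (0.998) and ATXN1 (0.998). These describe 6 libraries in 3 groups that share their depth and group, and carry no p. CYR61 and CTGF had r = 0.976 with each other, and YAP1 had r = 0.775 with CYR61 and 0.764 with CTGF over the same libraries.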

How the data were processed

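Gene expression was measured by QuantSeq 3′ mRNA sequencing in 6 libraries of MDA-MB-231 cells, 2 per group. The authors deposited 1 file of raw read counts per gene symbol for each library. Per the labels, reads were handled with Bowtie2 and edgeR on hg19, versions not given, and the counting program and annotation are not given in the sources used here. Each file held 25737 lines for 24462 symbols, and 286 symbols on several lines were summed. Genes passing filterByExpr (minimum count 10) were tested with edgeR 4.0.16 in R 4.3.3: TMM scaling, all 6 libraries in 1 quasi-likelihood model (3 residual degrees of freedom), Benjamini-Hochberg adjustment over 12650 genes and a threshold of 0.05. Alternatives used DESeq2 1.42.0, limma 3.58.1, other scalings, filters and samples. The script was tested on simulated counts. Depth was 3055915 to 4868004 counts, and a floor of 3 counts covers counting error only.

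The members and lists were chosen with earlier results of these data known. All 10 members were named, with list genes past the threshold (at most the 5 of smallest p per list), STK3, STK4, LATS1, TEAD2 and TEAD3, and the 3 genes most like YAP1, CYR61 and CTGF by Pearson's r. Coordinates and sequences came from GENCODE 29 and RefSeq on GRCh38, and none were placed on hg19.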

Additional observations from a re-analysis of the deposited data

How the results depend on the processing

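With miR-200a alone, 0 of the 10 genes passed, against 1 (AMOTL2) with only the 2 groups in the fit and 0 to 2 when 1 library was left out. With the plasmid against miR-200a, 4 passed, against 0 by limma and 0 to 7 when 1 library was left out. Against the NC mimic, 4 passed, against 1 (CTGF) with only the 2 groups in the fit, 0 by limma and 0 to 9 when 1 library was left out. DESeq2 gave 0, 4 and 3 in the 3 comparisons. The cause of these changes was not tested.

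Over the whole table, edgeR called 34, 1637 and 1629 genes. Fits of only the 2 groups called 983, 542 and 587, limma 4, 107 and 391, DESeq2 88, 1213 and 1264, and no filter beyond 1 count 230, 2490 and 2525. Leaving out a library gave from 0 to 1010, from 31 to 4684 and from 96 to 4675. Under upper-quartile scaling, the share of calls that were higher was 41.4% in place of 54.3% for the plasmid against miR-200a, and 42.9% in place of 53.8% against the NC mimic. By limma these shares were 23.4% and 42.2%.

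The sign turned in values that did not pass. CTGF with miR-200a alone was 0.0084 without the filter, 0.0014 with 2 groups and 0.028 by limma, and ran from -0.038 to 0.011 when a library was left out. WWTR1 with the plasmid against miR-200a was -0.016 under upper-quartile scaling and -0.022 by limma, and ran from -0.037 to 0.097 when a library was left out. TEAD4 ran from -0.13 to 0.062, from -0.33 to 1.27 and from -0.33 to 1.26 in the 3 comparisons, and AXL from -0.050 to 0.42 and from -0.071 to 0.40 in those with the plasmid. The log2 difference of CYR61 ran from -2.23 to -0.92 against miR-200a and from -2.17 to -0.86 against the NC mimic. Of 270 values of single genes under other settings, 247 kept their sign and side of the threshold, 4 passed anew, 14 no longer passed and 5 turned. Of 180 values with 1 library left out, 132 kept both, 13 passed anew, 24 no longer passed and 11 turned.

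Same-numbered libraries did not deviate together (r = -0.003, -0.036 and -0.108 over genes), so the numbers were not taken to pair the libraries. With the replicate number as a block, 0, 4 and 3 of the 10 genes passed, and 13, 1157 and 1170 genes in all. TEAD1 was the gene that lost its call, at an adjusted p of 0.057. A crossed block, added after seeing the data, gave 0, 4 and 5 of the 10, and 22, 1644 and 1661 in all.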
